A study of Mus musculus with 20 samples.

Results

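The promoters described here are those of the mouse major histocompatibility complex (MHC) and of the natural killer cell receptors, in sperm DNA. They are the 71 of 22480 promoters whose gene symbol begins with H2- on chromosome 17 (39 promoters) or with Klr on chromosome 6 (32 promoters). Methylated DNA was captured from the sperm of 20 F1 males, 8 weeks old, with a methyl binding domain and sequenced (MBD-sequencing), and each of the 4 groups held 5 males. C57BL/6J DEHP and FVB/N DEHP males were born to mothers of these inbred strains that took 300 mg/kg/day of bis(2-ethylhexyl)phthalate (DEHP, a plasticizer) in corn oil by mouth between gestation days 9 and 19. The mothers of C57BL/6J control and FVB/N control males took corn oil alone on the same days. Control and DEHP sperm DNA went to the sequencing provider in separate submissions, each with both strains, so DEHP and submission cannot be told apart, whereas the strain comparison was made once in each submission on different males. The labels do not give the litter, so males of a group may share a mother.

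The MHC holds the genes by which cells show peptides to T cells. Classical class I molecules (H2-K and H2-D) sit on most cells, nonclassical ones (the Q, T and M families) on fewer, class II molecules (H2-A and H2-E) on antigen presenting cells, and H2-DM and H2-O load peptides onto class II. On natural killer cells, receptors of the Klr families (Ly49, NKR-P1 and NKG2 with its partner CD94) read class I and related ligands and hold back or start killing. Both regions arose by repeated gene duplication, and inbred strains differ in sequence and, for several families, in the number of genes. C57BL/6J carries the MHC haplotype b and FVB/N the haplotype q.

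Each promoter was measured over 1 probe of 2200 bp, and the unit is normalized reads, given as the mean of the 5 males of a group ± SD. Values of single males were not analysed here, and the depth of single libraries is not known. The study's methods state that DEHP libraries were sequenced deeper on average and with slightly longer reads than control libraries, a further difference between the submissions. The number of reads over a probe depends on the methylation of its CG sites, on their number, and on how many copies of the sequence the genome holds, and a read must also align at 1 position of the C57BL/6J reference. No uncaptured DNA was analysed here, so methylation and copy number cannot be told apart. The 39 H2- probes lay at chr17:33978592-37485529 of mm10, and 30 of the 32 Klr probes at chr6:128622735-131249362, with Klrg1 and Klrg2 outside. The 71 symbols stood for 67 distinct windows, because H2-DMb1 and H2-DMb2, Klrb1c and Klrb1b, Klra19 and Klra6, and Klra18 and Klra4 were listed with the same probe. A further 4 pairs of windows overlapped in part (H2-Ab1 with H2-Eb1, H2-Q8 with H2-Q6, Klra9 with Klra3, Klra22 with Klra15), so their reads were shared.

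The symbol and the position of a probe did not always fit together. In the GENCODE annotation of this assembly, 63 members had a gene of the same name on the chromosome, and for 51 of them the probe was anchored within 50 bp of that gene's start. In 6 the distance was over 4000 bp. The probe listed as H2-T23 lay 78571 bp from the start of H2-T23 and held the starts of BC023719 and H2-T-ps, the probe of H2-Eb1 lay 41035 bp away over the start of H2-Ab1, that of Klrb1c 37100 bp away over the start of Klrb1b, and that of Klra9 142705 bp away over the start of Klra3. The remaining 8 (H2-L, H2-Q8, Klra12, Klra15, Klra18, Klra19, Klra21 and Klra22) had no gene of that name there. Values below belong to the probe as listed.

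The promoters of these families are poor in CG. Of the Klr probes, 30 of 32 held at most 20 CG sites, as did 17 of 39 H2- probes and 22.0% of all promoters. RefSeq promoter sequences of GRCm38.p6, from 250 bases before to 50 bases after the start of transcription, matched 51 members by symbol and lay inside the probe for 45. CG occurred a median of 3 times in the 27 H2- sequences inside their probe, 2 times in the 18 Klr sequences and 7 times over all 32851 sequences. The 5 sequences below belong to promoters that the comparisons single out, each 5′ to 3′ on the strand of its gene with every CG in capitals. H2-T3 (chr17:36190102-36190401, minus strand) and H2-D1 (chr17:35262844-35263143, plus strand) differed between strains in opposite directions. H2-Ke6 (chr17:34028006-34028305, minus strand), H2-M10.5 (chr17:36772660-36772959, plus strand) and Klrb1 (chr6:128723048-128723347, minus strand) differed between DEHP and control.
H2-T3: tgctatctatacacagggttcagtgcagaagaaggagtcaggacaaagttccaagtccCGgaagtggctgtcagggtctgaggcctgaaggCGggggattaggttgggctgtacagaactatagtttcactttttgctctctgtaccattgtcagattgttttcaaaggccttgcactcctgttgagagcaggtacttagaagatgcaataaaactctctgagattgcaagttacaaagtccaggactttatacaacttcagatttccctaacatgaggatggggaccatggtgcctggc
H2-D1: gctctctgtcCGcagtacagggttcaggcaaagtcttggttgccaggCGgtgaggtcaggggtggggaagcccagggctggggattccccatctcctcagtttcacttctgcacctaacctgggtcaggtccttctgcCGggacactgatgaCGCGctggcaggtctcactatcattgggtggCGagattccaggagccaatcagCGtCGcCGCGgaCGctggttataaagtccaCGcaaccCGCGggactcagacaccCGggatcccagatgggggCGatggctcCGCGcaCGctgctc
H2-Ke6: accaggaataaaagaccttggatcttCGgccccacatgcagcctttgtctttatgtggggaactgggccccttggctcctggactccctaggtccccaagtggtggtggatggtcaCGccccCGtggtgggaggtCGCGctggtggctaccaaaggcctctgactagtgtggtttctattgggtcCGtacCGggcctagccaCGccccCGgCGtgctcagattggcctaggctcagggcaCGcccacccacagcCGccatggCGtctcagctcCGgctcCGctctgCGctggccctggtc
H2-M10.5: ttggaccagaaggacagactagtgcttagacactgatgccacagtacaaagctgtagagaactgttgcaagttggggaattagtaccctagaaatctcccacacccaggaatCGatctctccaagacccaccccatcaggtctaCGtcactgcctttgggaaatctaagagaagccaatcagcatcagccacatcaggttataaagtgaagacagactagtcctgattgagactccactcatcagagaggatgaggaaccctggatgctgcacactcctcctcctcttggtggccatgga
Klrb1: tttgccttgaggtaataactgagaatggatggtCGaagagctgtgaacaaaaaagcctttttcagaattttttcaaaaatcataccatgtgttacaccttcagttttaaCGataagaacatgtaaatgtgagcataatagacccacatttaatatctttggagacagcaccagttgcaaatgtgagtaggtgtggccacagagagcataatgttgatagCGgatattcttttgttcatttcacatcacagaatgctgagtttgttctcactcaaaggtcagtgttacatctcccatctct
The CG dinucleotide occurred 2 times in H2-T3 and in H2-M10.5, 3 times in Klrb1, 16 times in H2-Ke6 and 19 times in H2-D1. Of all promoter sequences, 23.3% held at most 2, 31.4% at most 3, 68.6% at most 16 and 73.5% at most 19.

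The level of methylated DNA differed widely among members. The highest H2- promoter in all 4 groups was H2-Ke6, a gene for a steroid dehydrogenase that lies in the MHC without being an antigen presenting molecule, with 67.1 ± 25.7 (SD, n = 5) normalized reads in C57BL/6J controls and 45.8 ± 17.8 in FVB/N controls. The median H2- promoter had 3.8 and 1.9 in C57BL/6J and FVB/N controls and 5.6 and 4.3 in C57BL/6J and FVB/N DEHP, against 5.0, 3.0, 5.3 and 4.9 over all promoters. The Klr promoters were lower, with medians of 2.0, 1.1, 3.45 and 2.55 in the same order. In C57BL/6J controls the NKR-P1 promoters (Klrb) had a median of 9.35 and the Ly49 promoters (Klra) of 1.0, and in FVB/N controls 5.45 and 0.2. Group sums over all promoters were 226268 for C57BL/6J and 141091.6 for FVB/N controls, and 153283 for C57BL/6J and 150346 for FVB/N DEHP. For comparisons the means were therefore multiplied by 0.725, 1.21, 1.06 and 1.06 in this order, the factors that brought the groups to a common median ratio over promoters with all 4 means above 3. All log2 ratios below are of these scaled means with 1 normalized read added, which understates the change of low promoters, and are given ± SE. Differences were tested with limma's moderated test rebuilt from means and SDs over all promoters with a mean of at least 1, and were called at a Benjamini-Hochberg adjusted p under 0.05.

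**Figure D1:**
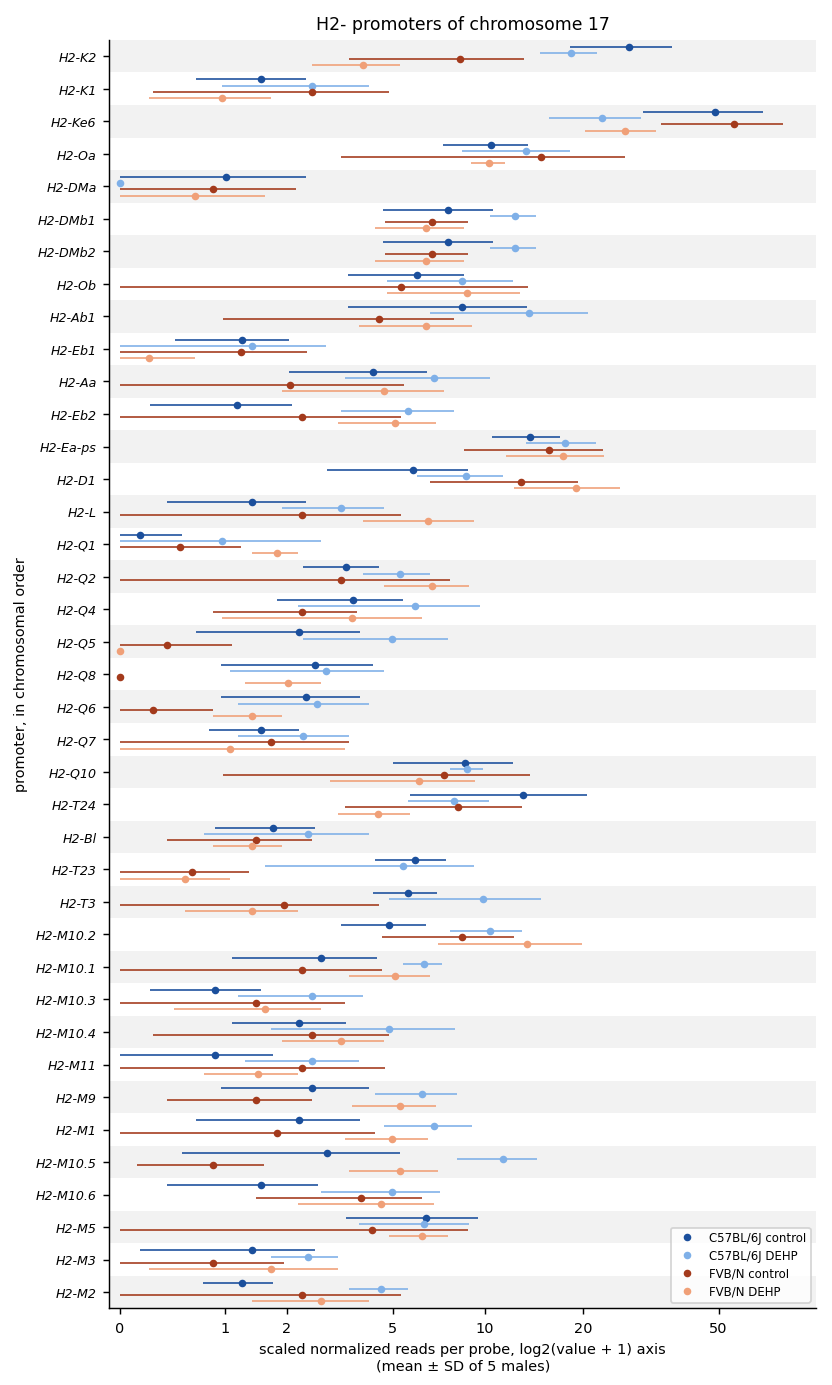
Scaled normalized reads per probe (log2 of value + 1 axis) of the 39 H2- promoters in chromosomal order, with points at the mean and lines, ended at 0, at ± SD of 5 males per group. C57BL/6J points of H2-K2, H2-T23 and H2-T3 lie to the right of the FVB/N points in both submissions, and those of H2-D1 to the left.

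The strain comparison asked whether promoters of the 2 haplotypes carry different amounts of methylated DNA. After DEHP, 4 H2- promoters were higher in C57BL/6J (H2-K2, H2-T3, H2-T23 and H2-Q5), 1 was lower (H2-D1), and 0 of the 29 Klr promoters tested were called. Among all promoters tested after DEHP, 1.02% were called higher in C57BL/6J and 0.0751% higher in FVB/N. H2-T23 and H2-Q5 passed the filter of a mean of at least 1 through the C57BL/6J group alone. Their calls are thus no independent support for a strain difference, and with a mean of at least 3 the count was 2 in place of 4. In controls 0 of the 60 members tested were called by limma, against 0.0737% and 0.0344% of all promoters in these directions. At an unadjusted p under 0.05, 6 members were higher in C57BL/6J controls and 1 was higher in FVB/N controls, against 3.08% and 2.84% of all promoters, and these 7 were the 5 promoters called after DEHP with H2-Q8 and H2-Q6. After DEHP, 15 members were higher and 2 lower at that level, against 6.46% and 1.89% of all promoters. Of the higher ones, H2-Q5, H2-T23, Klri2, Klra3, Klra6, Klra12, Klra19 and Klra21 passed the filter through the C57BL/6J group alone. H2-DMb1 and H2-DMb2 share a window, as do Klra6 and Klra19. This count is thus no independent support for a strain difference. In the means as deposited, 4 members were called higher in C57BL/6J controls, H2-K2 (adjusted p = 0.00121), H2-T23 (adjusted p = 0.00641), H2-Q8 (adjusted p = 0.0384) and H2-T3 (adjusted p = 0.0388), beside 853 of all promoters in place of 15. On a log2 scale of the test, 1 member was called in controls (H2-T23, adjusted p = 0.0482). For H2-T23, H2-Q5, H2-Q8 and H2-Q6, tested through C57BL/6J controls alone, these control results are no independent support for a strain difference. Since the control calls moved with the setting, a control difference that was not called is not shown to be absent.

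H2-K2, a class I gene of the K region, showed the largest strain difference in scaled reads among the members in both submissions. Its probe at chr17:33978592-33980791 holds 52 CG sites and the start of the gene. The mean was 37.7 ± 12.6 in C57BL/6J controls and 6.9 ± 4.0 in FVB/N controls, and 17.3 ± 3.4 in C57BL/6J DEHP and 3.7 ± 1.3 in FVB/N DEHP. The C57BL/6J groups were the higher in both submissions. The log2 ratio of C57BL/6J over FVB/N was 1.60 ± 0.39 in controls (limma, adjusted p = 0.168, and 2.29 as deposited) and 1.98 ± 0.22 after DEHP (adjusted p = 8.63e-06). From the means and SDs, every C57BL/6J DEHP male must lie above every FVB/N DEHP male, since the ranges of mean ± 1.79 SD, which hold all 5 values of a group, did not overlap. H2-K2 was the 1 member so separated after DEHP, where 0.316% of all promoters were separated with C57BL/6J higher.

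In the T region, which holds nonclassical class I genes, the probe listed as H2-T23 (chr17:36111227-36113426, 60 CG sites) had 8.2 ± 2.2 normalized reads in C57BL/6J controls and 0.5 ± 0.6 in FVB/N controls, and 5.1 ± 3.6 and 0.5 ± 0.5 after DEHP. Its log2 ratio was 2.11 ± 0.33 in controls (limma, adjusted p = 0.18) and 2.07 ± 0.44 after DEHP (adjusted p = 0.00215). H2-T23 passed the filter on low values through the C57BL/6J groups alone, so its calls are no independent support for a strain difference. After DEHP it was not tested with a mean of at least 3. It was the 1 member whose control groups were separated, with 0.28% of all promoters separated in this direction, and H2-K2 was separated too in the means as deposited. H2-T3, which encodes the thymus leukemia antigen, had 7.8 ± 1.9 in C57BL/6J controls, 1.6 ± 2.1 in FVB/N controls, 9.3 ± 4.7 in C57BL/6J DEHP and 1.3 ± 0.8 in FVB/N DEHP. The log2 ratio of H2-T3 was 1.18 ± 0.57 in controls (limma, adjusted p = 0.733) and 2.20 ± 0.37 after DEHP (adjusted p = 5.41e-05). All 4 promoters of the T group, with H2-T24 and H2-Bl, had a log2 ratio above 0 in both submissions. H2-T24 stood at 0.61 ± 0.48 (1.29 as deposited) and 0.72 ± 0.23, and H2-Bl at 0.16 ± 0.35 and 0.54 ± 0.35, and neither was called.

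H2-Q5, a nonclassical class I gene of the Q region, was at or near 0 in FVB/N. The mean was 0.3 ± 0.6 in FVB/N controls, and was listed at 0.0 ± 0.0 in the FVB/N males of DEHP-treated mothers, against 3.1 ± 2.2 in C57BL/6J controls and 4.7 ± 2.5 in C57BL/6J DEHP. The scaled difference was 1.88 ± 0.81 normalized reads (SE) in controls (limma, adjusted p = 0.749) and 5.0 ± 0.99 after DEHP (adjusted p = 0.00026). H2-Q5 passed the filter through the C57BL/6J groups alone and was not tested with a mean of at least 3. It was the 1 member with a mean under 0.5 in both groups of 1 strain and of at least 2 in both groups of the other. The overlapping probes of H2-Q8 and H2-Q6 were also low in FVB/N controls, at 0.0 ± 0.0 and 0.2 ± 0.5, against 3.6 ± 2.3 and 3.3 ± 2.0 in C57BL/6J controls. After DEHP their FVB/N means were 1.9 ± 0.7 and 1.3 ± 0.5, and neither was called in a strain comparison of scaled means, whereas H2-Q8 was called in controls as deposited. In controls H2-Q8 passed the filter through the C57BL/6J group alone.

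H2-D1, a classical class I gene expressed on nearly all cells, went the other way. The mean was 8.1 ± 4.1 in C57BL/6J controls and 10.7 ± 5.2 in FVB/N controls, and 8.2 ± 2.5 and 17.9 ± 6.3 after DEHP. The log2 ratio was -1.02 ± 0.40 in controls (limma, adjusted p = 0.746) and -1.04 ± 0.28 after DEHP (adjusted p = 0.0442). In the means as deposited the control ratio was -0.36. H2-K1, the classical class I gene of the K region, had 2.1 ± 1.2 and 2.1 ± 1.9 in controls and 2.4 ± 1.5 and 0.9 ± 0.7 after DEHP in C57BL/6J and FVB/N, with adjusted p of 0.989 and 0.599. By size alone, a log2 ratio above 1 in both submissions occurred in 4 H2- promoters (H2-K2, H2-T3, H2-T23 and H2-Q5) and 0 Klr promoters, against 0.907% of all promoters. A log2 ratio under -1 in both occurred in H2-D1, against 0.089% of all promoters, and in 0 members as deposited, where the 4 above 1 were the same. By adjusted p, 0 members were called in both submissions, against 0.0862% of the promoters tested in both, but 3 were called in both as deposited (H2-K2, H2-T3 and H2-T23) and 1 on the log2 scale (H2-T23). The calls of H2-T23, tested through the C57BL/6J groups alone, are no independent support for a strain difference.

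**Figure D2:**
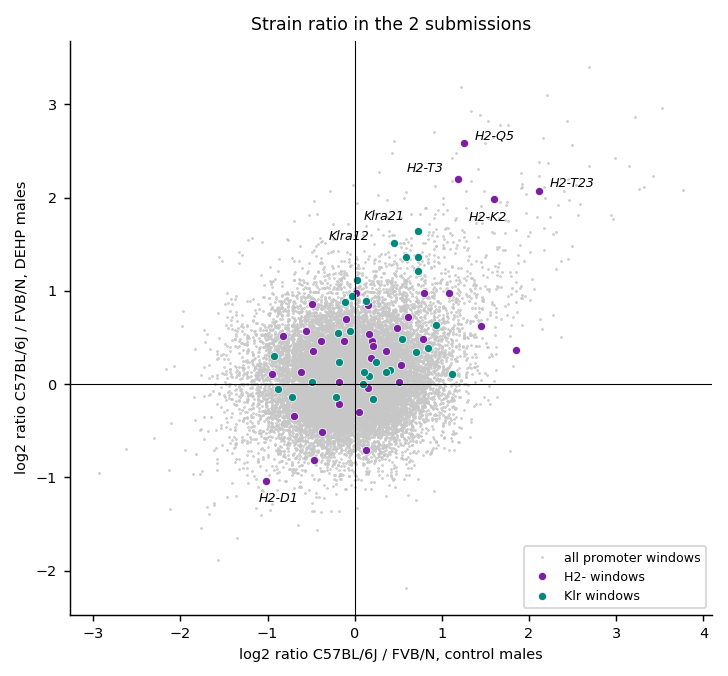
Log2 ratio of C57BL/6J over FVB/N in control males (x axis) and in DEHP males (y axis), which are different animals, for the H2- windows, the Klr windows and all promoter windows. H2-K2, H2-T3, H2-T23 and H2-Q5 lie above 1 on both axes and H2-D1 lies under -1 on both.

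The remaining antigen presenting genes were not called between strains. For the class II chains, H2-Ab1 had 11.7 ± 6.9 in C57BL/6J controls, 3.7 ± 2.9 in FVB/N controls, 12.9 ± 6.6 in C57BL/6J DEHP and 6.1 ± 2.5 in FVB/N DEHP, with log2 ratios of 0.79 ± 0.54 (1.43 as deposited) and 0.98 ± 0.38 (limma, adjusted p = 0.95 and 0.0955). Its partner H2-Aa stood at 5.9 ± 3.1, 1.7 ± 2.8, 6.5 ± 3.3 and 4.4 ± 2.6 in the same order, with adjusted p of 0.97 and 0.805. The probe of H2-Eb1, which overlaps that of H2-Ab1 in part and holds 103 CG sites against 23 for H2-Ab1, was at or below 1.7 in all groups. The pseudogene H2-Ea-ps was among the higher promoters in every group, with 19.0 ± 4.5, 13.0 ± 5.9, 16.6 ± 4.0 and 16.4 ± 5.4, and its log2 ratios were -0.18 ± 0.31 in controls (0.51 as deposited) and 0.02 ± 0.25 after DEHP. Among the peptide loading genes, H2-Oa had 14.4 ± 4.3, 12.3 ± 9.6, 12.6 ± 4.6 and 9.7 ± 1.2. H2-DMa, with 152 CG sites the richest member, was at 1.4 ± 1.9 or below in all groups and at 0.0 ± 0.0 in C57BL/6J DEHP. H2-Q10, which encodes a secreted class I molecule of liver, had 11.9 ± 5.0, 6.1 ± 5.3, 8.3 ± 1.0 and 5.8 ± 3.0. H2-M3, which presents N-formylated peptides and had 0 variants between strains, had 1.9 ± 1.7, 0.7 ± 0.9, 2.3 ± 0.7 and 1.6 ± 1.4. The 12 promoters of the M group were spread around 0 in controls, with 6 above 0 and a median log2 ratio of 0.03 (7 above 0 and 0.56 as deposited), and 11 of the 12 were above 0 after DEHP, with a median of 0.38 and 0 called.

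Among the natural killer receptors, the Ly49 promoters were those nearest to 0 in FVB/N. Of the 17 Ly49 symbols, 7 were listed at 0 in FVB/N controls (Klra3, Klra6, Klra9, Klra12, Klra15, Klra19 and Klra21), that is 41.2%, against 0.907% of all promoters in this group. In C57BL/6J controls 0 of the 17 were listed at 0, against 0.494% of all promoters. Klra21 was at 0 in both FVB/N groups, at 0.9 ± 0.9 in C57BL/6J controls and at 2.0 ± 1.1 in C57BL/6J DEHP. Klra12 had 0.0 ± 0.0 in FVB/N controls, and 0.2 ± 0.4 in the FVB/N males of DEHP-treated mothers, against 0.5 ± 0.6 and 2.3 ± 1.7 in C57BL/6J. The window shared by Klra6 and Klra19 had 0.0 ± 0.0 and 0.2 ± 0.4, against 0.7 ± 0.6 and 2.0 ± 1.3. The levels were low in C57BL/6J too, and after DEHP the scaled differences of 2.13 ± 0.66, 2.23 ± 0.72 and 1.91 ± 0.68 normalized reads (SE) had adjusted p of 0.0804, 0.112 and 0.199 in limma's test. On the log2 scale of the test, Klra21 (adjusted p = 0.0225) and Klra12 (adjusted p = 0.0428) were called. Both passed the filter on low values through the C57BL/6J group alone, so these calls are no independent support for a strain difference. A mean under 0.5 in both FVB/N groups occurred in 7 of 17 Ly49 symbols, which stand for 6 windows, and in Klrc2, against 0.778% of all promoters. The same in both C57BL/6J groups occurred in 0 of the 71 members and in 0.12% of all promoters.

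The remaining Ly49 promoters named had means above 0 in every group or in FVB/N DEHP. Klra1 (Ly49A, an inhibitory receptor for class I) had 3.1 ± 3.0 in C57BL/6J controls, 1.2 ± 1.6 in FVB/N controls, 3.3 ± 2.2 in C57BL/6J DEHP and 2.9 ± 0.8 in FVB/N DEHP. Klra4 (Ly49D, an activating receptor), whose window is that of Klra18, had 2.1 ± 0.6, 0.6 ± 1.3, 1.9 ± 1.5 and 1.1 ± 1.2. Klra8 (Ly49H, the C57BL/6J receptor for a cytomegalovirus protein) was at 0.2 ± 0.5 in both control groups, at 1.7 ± 1.0 in C57BL/6J DEHP and at 0.5 ± 0.8 in FVB/N DEHP. Klra22 and Klra15, whose probes overlap, were at 0.2 ± 0.5 and 0.0 ± 0.0 in FVB/N controls, and at 2.2 ± 1.2 and 3.2 ± 2.0 in the FVB/N males of DEHP-treated mothers, beside C57BL/6J DEHP means of 3.9 ± 1.7 and 3.5 ± 1.0.

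The NKR-P1 and NKG2 promoters showed no called strain difference. Klrb1c, which encodes the NK1.1 antigen and is listed with the probe at the start of Klrb1b, had 13.2 ± 2.5 in C57BL/6J controls, 13.6 ± 4.5 in FVB/N controls, 18.0 ± 5.5 in C57BL/6J DEHP and 20 ± 2.8 in FVB/N DEHP. After scaling its log2 ratio was -0.72 ± 0.23 in controls and -0.14 ± 0.21 after DEHP (limma, adjusted p = 0.846 and 0.97), whereas the means as deposited were close to each other in controls. Klrd1 (CD94) had 5.2 ± 1.8, 2.5 ± 1.7, 8.4 ± 1.3 and 7.0 ± 4.0 in the same order of groups, and its partner Klrc1 (NKG2A) 5.2 ± 1.4, 1.6 ± 0.8, 7.2 ± 3.7 and 5.5 ± 2.1. Klrk1 (the activating receptor NKG2D) had 5.2 ± 3.1, 2.7 ± 1.2, 4.5 ± 2.2 and 4.2 ± 3.8, and Klrg1, a receptor for cadherins, 13.0 ± 6.0, 9.2 ± 7.2, 14.0 ± 5.9 and 15.6 ± 3.2. The adjusted p of these 4 lay between 0.903 and 0.992 in both strain comparisons. The median log2 ratio of all Klr promoters was 0.18 in controls and 0.36 after DEHP, that of H2- promoters 0.15 and 0.46, and that of all promoters -0.05 and 0.05. In the means as deposited the control medians were 0.71 for H2-, 0.73 for Klr and 0.54 for all promoters. The log2 ratio was above 0 in both submissions for 21 of 39 H2- and 20 of 32 Klr symbols, against 27.9% of all promoters.

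**Figure D3:**
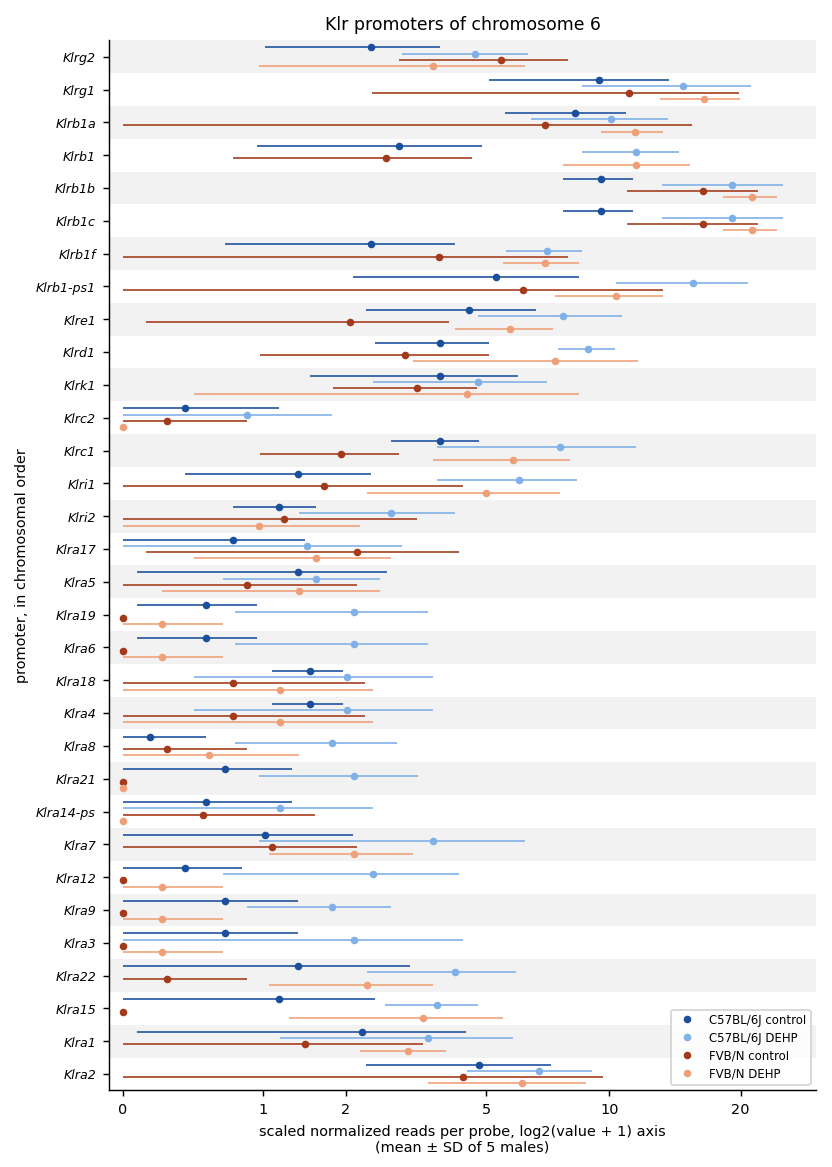
Scaled normalized reads per probe (log2 of value + 1 axis) of the 32 Klr promoters in chromosomal order, with points at the mean and lines, ended at 0, at ± SD of 5 males per group. FVB/N points of Klra3, Klra6, Klra9, Klra12, Klra19 and Klra21 lie at or near 0, whereas those of the NKR-P1 promoters lie higher.

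The annotation deposited with the values counts the sequence variants between the strains in each probe (promoter variants) and the functional variants of the gene. More than 20 promoter variants were found in 17 of 39 H2- and 9 of 32 Klr symbols, that is 43.6% and 28.1%, against 5.4% of all promoters. The densest were Klra12 with 66, Klra8 with 61, Klra6 with 60 and H2-K2 with 51. At least 1 functional variant was listed for 53 of the 71 members (74.6%) and for 24.8% of all promoters, and the highest numbers were 94 for Klra22 and Klra15 and 74 for H2-T23. Of the 4 promoters higher in C57BL/6J after DEHP, H2-K2, H2-T3 and H2-T23 held 51, 45 and 28 promoter variants and H2-Q5 held 7. H2-D1, which was lower, held 7.

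Over the whole series, probes with many variants had higher C57BL/6J over FVB/N ratios. Over all windows, the median log2 ratio was -0.09 in controls and 0.00 after DEHP with 0 variants, and 0.41 and 0.53 with over 20. Windows outside both families gave 0.41 and 0.52 with over 20 variants. The 16 H2- windows of that class had medians of 0.15 in controls and 0.72 after DEHP, and the 7 Klr windows 0.55 and 1.21. With 0 variants the 4 H2- windows had medians of 0.20 and 0.19 and the 4 Klr windows -0.54 and 0.43, so the H2- medians in controls were not higher with more variants. Across windows, Spearman's rho between the number of variants and the strain ratio was 0.18 in controls and 0.46 after DEHP for the 38 H2- windows, 0.45 and 0.50 for the 29 Klr windows, and 0.17 and 0.21 for all 22374. Windows are not replicates and neighbouring ones share haplotype and reads, so these are descriptions. Of promoters with over 20 variants, 10.6% were called higher in C57BL/6J after DEHP, beside 3 of 16 tested H2- symbols and 0 of 7 tested Klr symbols of that class. H2-T23, among these H2- symbols, was tested through the C57BL/6J group alone. In controls 0.555% were called, beside 0 of 18 tested members. The part of alignment to the C57BL/6J reference in these values was not tested.

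**Figure D4:**
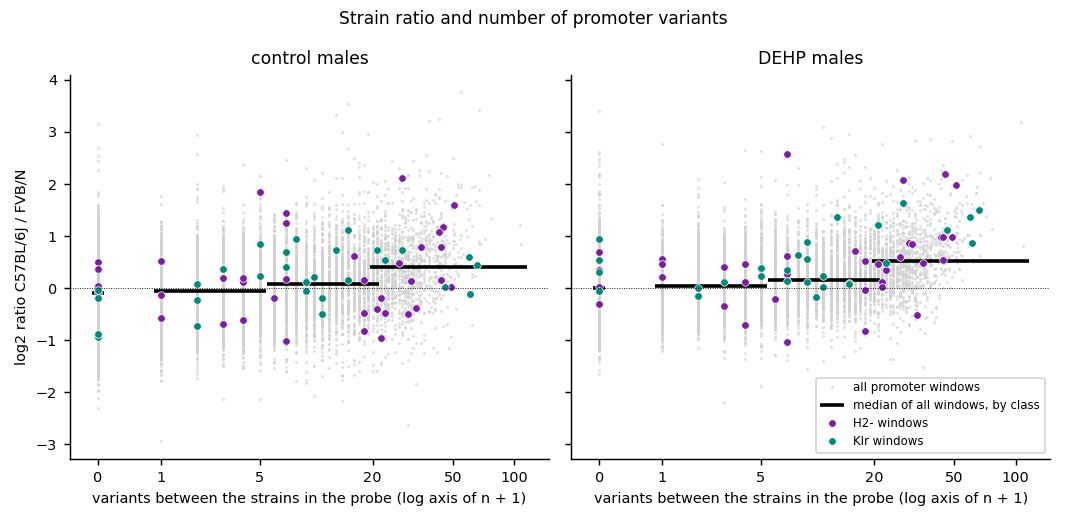
Log2 ratio of C57BL/6J over FVB/N against the number of variants between the strains in the probe (log axis of the number + 1), in control males (left) and DEHP males (right). Black lines are medians over all windows with 0, 1 to 5, 6 to 20 and over 20 variants, which rise to 0.41 and 0.53 in the last class, and the coloured points are the H2- and Klr windows.

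Hints of copy number came from the zeros and from the uniqueness of the sequence. In FVB/N controls 3.21% of all promoters with over 20 variants were listed at 0, beside 41.2% of Ly49 symbols. In C57BL/6J controls 0.577% of promoters with over 20 variants were. Of the Ly49 symbols at 0, Klra3 and Klra15 held only 13 and 15 variants, and Klra6 and Klra19 share a window. Ly49 probes held a median of 10 CG sites and a median of 1 normalized read in C57BL/6J controls. The share at 0 among all promoters with such low levels was not computed. In FVB/N DEHP males 2 of 17 Ly49 symbols (Klra21 and Klra14-ps, 11.8%) were listed at 0, beside 1.48% of promoters with over 20 variants, whereas Klra3, Klra6, Klra9, Klra12 and Klra19 stood at 0.2 ± 0.4 and Klra15 at 3.2 ± 2.0. The share of 51-base sequences of the probe (sampled every 20 bases) that occur once in the C57BL/6J reference had a median of 99.1% over all promoters. It was 34.3% for H2-Q5, 35.2% for H2-Q8, 37.0% for H2-Q6, 58.3% for H2-T23 and 16.7% for Klrc2, and 97.2% for H2-K2, 87.0% for H2-T3 and 99.1% for H2-D1. Under 80% was found in 7 H2- and 5 Klr symbols (17.9% and 15.6%), against 4.55% of all promoters. Pairs aligning to several positions were discarded before counting, so probes of low uniqueness may have been measured on fewer positions. The share was computed on single sequences of the C57BL/6J reference and not on read-pairs or FVB/N sequence. Klrc2 was at or below 0.8 in all 4 groups. Missing genes, diverged sequence and lower methylation in FVB/N cannot be told apart in these values.

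The DEHP comparison asked which promoters changed with prenatal exposure, and it compares 2 submissions. In C57BL/6J, 16 members were higher in DEHP (7 H2- and 9 Klr, in 15 windows) and 1 was lower (H2-Ke6), against 12.1% and 3.43% of all promoters tested. Among all promoters 2583 were called higher and 734 lower, a split that turned to 678 higher and 3045 lower in the means as deposited, where 5 members (Klrb1, H2-M10.5, H2-Eb2, Klri1 and Klrb1-ps1) were higher and 3 (H2-Ke6, H2-K2 and H2-T24) were lower. The calls held 6 of the 12 class I M promoters and 5 of the 6 NKR-P1 symbols. Klrb1, a receptor of the NKR-P1 family, had 4.0 ± 2.7 in C57BL/6J controls and 10.9 ± 2.8 in C57BL/6J DEHP, with a log2 ratio of DEHP over control of 1.69 ± 0.36 (limma, adjusted p = 0.0011). H2-M10.5, of a class I family expressed in the vomeronasal organ, had 4.0 ± 3.3 and 10.7 ± 3.0, with 1.67 ± 0.43 (adjusted p = 0.00119). The next by size were H2-Eb2 (1.62 ± 0.36), Klri1 (1.57 ± 0.35), Klrb1-ps1 (1.40 ± 0.38) and Klra12 (1.34 ± 0.40). Klra12 passed the filter on low values through the DEHP group alone, so its call is no independent support for a difference. It was not tested with a mean of at least 3 and not called as deposited (limma, adjusted p = 0.0857). Klrd1 and the window of Klrb1c rose by 1.06 ± 0.20 and 0.93 ± 0.22, but by 0.60 and 0.42 as deposited, where neither was called (limma, adjusted p = 0.245 and 0.368). H2-M2 and Klrd1 were separated between the groups, where 0.974% of all promoters were separated with DEHP higher, but 0 members were separated in the means as deposited. H2-Ke6 fell from 67.1 ± 25.7 to 21.4 ± 6.5, with a log2 ratio of -1.06 ± 0.31 (limma, adjusted p = 0.0211).

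In FVB/N fewer members were called. Higher in DEHP were Klrb1, H2-M10.5 and Klra15, against 0.931% of all promoters, and 0 were lower, against 2.39%. The split of all calls, 192 higher and 493 lower, was 462 and 353 in the means as deposited and 297 and 394 with equal sums, with 3 members higher and 0 lower in each. Klrb1 had 2.2 ± 1.6 in FVB/N controls, and 10.9 ± 3.6 in the FVB/N males of DEHP-treated mothers, with a log2 ratio of 1.77 ± 0.39 (limma, adjusted p = 0.0298). H2-M10.5 had 0.7 ± 0.6 and 5.0 ± 1.7, with 1.77 ± 0.31 (adjusted p = 0.0434). It passed the filter on low values through the DEHP group alone, so this call is no independent support for a difference. With a mean of at least 3, Klrb1 alone was called higher. Klra15 went from 0.0 ± 0.0 to 3.2 ± 2.0, a scaled difference of 3.39 ± 0.93 normalized reads (SE, adjusted p = 0.0449), and passed the filter on low values through the DEHP group alone. H2-Ke6 had 45.8 ± 17.8 and 25.0 ± 5.9, a log2 ratio of -1.04 ± 0.29 with an adjusted p of 0.0558, and it was called with a mean of at least 3 (adjusted p = 0.0476) and on the log2 scale (adjusted p = 0.0163). At an unadjusted p under 0.05, 11 of 53 tested members were higher and 1 was lower, against 12.9% and 7.73% of all promoters. H2-Q8, not tested because of its low mean, was the 1 member whose FVB/N groups were separated (0.489% of all promoters, DEHP higher). The difference of the DEHP effect between strains was tested with an interaction, in which 0 members were called (0.0141% of all promoters). In limma's test 2 members, H2-Q5 and Klrg2, had an unadjusted p under 0.05 of 60 tested, both with a larger DEHP minus control difference in C57BL/6J, against 4.18% of all promoters in that direction, and 0 were called on the log2 scale. The DEHP effects of the strains were therefore not shown to differ, nor to be alike.

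Promoters with few CG sites were higher in DEHP throughout the series. In C57BL/6J the median log2 ratio of DEHP over control was 0.93 over all promoters with up to 10 CG sites and 0.26 with over 45, and in FVB/N it was 0.67 and 0.12. All 16 members that rose in C57BL/6J held at most 20 CG sites. They were 36.4% of the 44 members tested with that few, beside 27.9% of all such promoters, and 0 of 22 tested members with more CG sites were called higher. In FVB/N the 3 called members were 8.57% of the 35 tested with at most 20 CG sites, beside 2.79% of all such promoters. H2-M10.5 and Klra15, among these 3, passed the filter through the DEHP group alone, so this share is no independent support for an excess. The median log2 ratio of members in FVB/N was 0.28 against 0.67 over all promoters with up to 10 CG sites. With 11 to 20 CG sites it was 0.61 against 0.57. Spearman's rho between CG sites and the C57BL/6J DEHP ratio was -0.76 over 38 H2- windows, 0.23 over 29 Klr windows and -0.24 over all windows. With the trend on CG sites removed, Klrb1 (adjusted p = 0.0116), H2-M10.5 (adjusted p = 0.0165) and H2-Eb2 (adjusted p = 0.0493) were still called higher in C57BL/6J, H2-Ke6 was called lower in C57BL/6J (adjusted p = 0.00673) and FVB/N (adjusted p = 0.0383), and 0 members were called higher in FVB/N, where the log2 ratio was 1.39 for Klrb1 (adjusted p = 0.0992) and 1.49 for H2-M10.5 (adjusted p = 0.099), and Klra15 had an adjusted p of 0.0576.

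**Figure D5:**
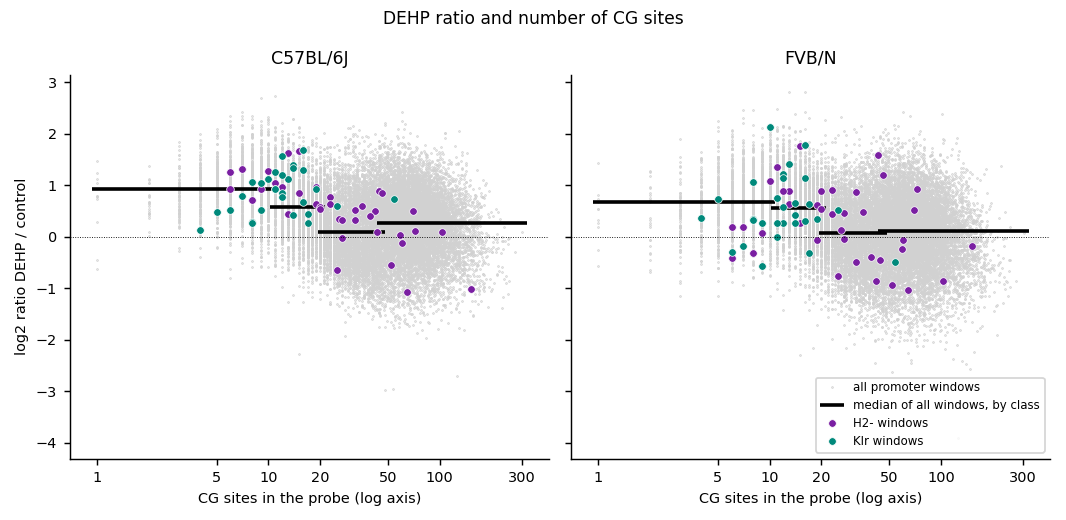
Log2 ratio of DEHP over control against the number of CG sites in the probe (log axis), in C57BL/6J (left) and FVB/N (right). Black lines are medians over all windows with up to 10, 11 to 20, 21 to 45 and over 45 CG sites, and the H2- and Klr windows with few CG sites lie mostly above 0 like the other windows of their class in C57BL/6J.

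The other genes of both pathways were measured beside the members. Of 22 genes of antigen processing and MHC control, 0 were called between strains by limma in either submission, and the lowest adjusted p was 0.665 in controls and 0.609 after DEHP. In C57BL/6J, 2 were lower in DEHP, the peptide transporter subunit Tap1 (25.0 ± 8.1 to 8.1 ± 2.1, limma adjusted p = 0.0222) and the loading factor Tapbp (11.5 ± 6.9 to 3.5 ± 1.4, adjusted p = 0.0422). In FVB/N the immunoproteasome subunit Psmb10 and the thiol reductase Ifi30 were lower (adjusted p = 0.000535 and 0.0354) and the protease Ctss was higher (adjusted p = 0.0366). B2m, the light chain shared by class I molecules, stayed between 1.9 and 3.2 in all groups. Of 18 ligands and adaptors of natural killer receptors, 2 were called between strains. Clec2f, a gene of the NKR-P1 ligand family within the Klr cluster, had 24.7 ± 4.1 in C57BL/6J controls and 46 ± 10.7 in FVB/N controls (log2 ratio -1.58, adjusted p = 0.0303), and 12.9 ± 5.7 and 24.0 ± 7.8 after DEHP (-0.84, adjusted p = 0.151). Ulbp1, a ligand of NKG2D, had 10.4 ± 2.1 and 0.6 ± 0.9 in controls (adjusted p = 0.112) and 3.5 ± 1.7 and 0.5 ± 0.5 after DEHP (log2 ratio 1.63, adjusted p = 0.0433). Ulbp1 passed the filter on low values through the C57BL/6J groups alone, so its call is no independent support for a strain difference. Between DEHP and control, the activating receptor Ncr1 (adjusted p = 0.00439) and the genes Clec2g (adjusted p = 0.000783) and Clec2h (adjusted p = 0.0351) were higher in C57BL/6J DEHP, and Clec2f was lower in FVB/N DEHP (adjusted p = 0.0203). Ncr1, at 0.7 ± 0.7 in C57BL/6J controls and 4.0 ± 1.6 in C57BL/6J DEHP, passed that filter through the DEHP group alone.

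Strain calls also fell on neighbours within the clusters, named here after their values were seen. Of 150 other promoters between the first and the last H2- member, 1 was called higher in C57BL/6J in controls and 4 after DEHP, against 0.0737% and 1.02% of all promoters tested. AA388235, whose probe overlaps that of H2-K2 and shares reads with it, had 54.5 ± 16.1 in C57BL/6J controls and 6.4 ± 3.8 in FVB/N controls (limma, adjusted p = 0.0144), and 22.0 ± 5.2 and 3.5 ± 1.1 after DEHP (adjusted p = 7.94e-08). C920025E04Rik, whose probe overlaps that of H2-T23, had 8.2 ± 1.7 and 0.5 ± 0.6 in controls and 5.8 ± 3.8 and 0.5 ± 0.5 after DEHP (adjusted p = 0.000549). The others were 2410017I17Rik (adjusted p = 0.0493) and Dhx16 (adjusted p = 0.0395). C920025E04Rik and 2410017I17Rik passed the filter on low values through the C57BL/6J group alone, so their calls are no independent support for a strain difference. Among the 24 neighbours in the Klr cluster Clec2f was the 1 called between strains. In the DEHP comparison in C57BL/6J, 11 of these 24 neighbours were called higher, with a median log2 ratio of 0.98, beside 9 of 29 tested Klr symbols with a median of 0.89 over all 32. The share was 12.1% of all promoters tested and 27.9% of those with at most 20 CG sites. As deposited the Klr median was 0.44, with 3 Klr symbols called (Klrb1, Klrb1-ps1 and Klri1). Among the H2- neighbours 13 of 150 were called higher and 11 lower, against 12.1% and 3.43% of all promoters tested. The label sperm was set beside promoters of imprinted genes. Whether their probes hold the control regions of the imprints was not checked, so these values do not test the label. For 3 genes the imprint is methylated in sperm. The promoters of H19 (17.5 to 25.3 over the groups) and Meg3 (5.2 to 25.8) were above the median of all promoters in every group. That of Rasgrf1 (2.4 to 3.7) was not, except in FVB/N controls. For 9 genes sperm leaves the imprint free of methylation. Their promoters had medians of 3.8 (C57BL/6J) and 2.9 (FVB/N) among controls and 4.1 (C57BL/6J) and 2.9 (FVB/N) among DEHP males. Among them, Nnat (9.5 to 26.5) and Peg3 (4.2 to 8.1) were above the median of all promoters in every group. Some of these promoters differed between DEHP and control, where DEHP and submission cannot be told apart. In C57BL/6J, Snrpn went from 0.5 ± 0.7 to 4.0 ± 1.0 in DEHP (log2 ratio 1.95, limma adjusted p = 0.00256), while Nnat (adjusted p = 0.043) and Meg3 (adjusted p = 0.0422) were lower, and their part in the DEHP results was not tested. Snrpn passed the filter on low values through the DEHP group alone.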

How the data were processed

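MBD-sequencing was run on the sperm of 20 males. Per the labels and the study's methods, the authors used Bowtie 0.12.7 for alignment to mm10, kept read-pairs with 1 position, and counted them per promoter probe before normalization in edgeR. The deposited signal gives each group's mean and SD of normalized reads to 1 decimal, over 5 males, and depths of single libraries are unknown. The authors' fold changes, p-values, FDR, expression and proteome columns were not used.

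Group means and SDs were scaled by the median ratio over promoters with all 4 means above 3, and a moderated variance with a trend on the level was fitted with limma 3.58.1 (R 4.3.3) over all promoters with a mean of at least 1, with SDs of at least 0.05 and Benjamini-Hochberg adjustment over all of them. P-values set the difference of group means against the spread between males, and the litter of the males is not known. The steps were tested on simulated data. The members and gene lists were chosen with earlier results of these data known. Named are the members called in both strain comparisons, the 6 largest DEHP calls per strain, interaction calls, members with a mean under 0.5 in 1 strain and at least 2 in the other, and a fixed list of well known genes. H2-K2, H2-T3, H2-Q6, H2-Q8, H2-M2, Klra21 and other members outside this rule were named after their values were seen. CG counts and unique 51-base sequences came from GRCm38.p6, and gene starts from GENCODE. Python 3.11.15, pandas 2.3.3 and matplotlib 3.10.9 were used.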

Additional observations from a re-analysis of the deposited data

How the results depend on the processing

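Leaving out single males was not run, since values of single males were not used here. No paired analysis was possible because the groups hold different animals without shared numbers and are given as means. Removing the trend on CG sites took 16 of the 25 named log2 ratios under the threshold and the means as deposited 11 of them. In the means as deposited, the median log2 ratio of all promoters moved from -0.05 to 0.54 between strains in controls from 0.32 to -0.10 for DEHP in C57BL/6J and from 0.21 to 0.35 for DEHP in FVB/N, the split of all calls between control strains moved from 15 higher and 7 lower in C57BL/6J to 853 and 7, and the split of all calls for DEHP in C57BL/6J turned from 2583 higher and 734 lower to 678 higher and 3045 lower. The members called in that setting were 4 higher in C57BL/6J controls (H2-K2, H2-T3, H2-T23 and H2-Q8) in place of 0, 3 in both submissions in place of 0, 5 higher in C57BL/6J DEHP in place of 16 and 3 lower (H2-K2, H2-T24 and H2-Ke6) in place of 1, and 2 separated between control strains in place of 1. With the test on the log2 scale, 1 member was called in controls and 1 in both submissions in place of 0 (H2-T23), and 1 lower in FVB/N DEHP in place of 0 (H2-Ke6). With a mean of at least 3, which leaves fewer promoters tested, 2 were higher in C57BL/6J after DEHP in place of 4, 1 was higher in FVB/N DEHP in place of 3 and 1 was lower in place of 0. With the trend on CG sites removed, 3 were higher in C57BL/6J DEHP in place of 16, 0 higher in FVB/N DEHP in place of 3 and 1 lower in FVB/N DEHP in place of 0. Counted by separated groups, 1 was higher in C57BL/6J controls in place of 0, 1 higher in C57BL/6J after DEHP in place of 4, 0 higher in FVB/N after DEHP in place of 1, 2 higher in C57BL/6J DEHP in place of 16, 0 lower in place of 1, and 1 higher in FVB/N DEHP in place of 3. Scaling to equal sums and no filter moved no count of called members by over 1.5 times and no called log2 ratio across the threshold. A pseudocount of 0.1 cannot change a call, since the test is on scaled reads, but it raised the log2 ratios of low promoters, such as Klra12 for DEHP in C57BL/6J from 1.34 to 2.46. The median log2 ratios of both families kept their sign with the other scalings, a pseudocount of 0.1 and members with a mean of at least 1, and 0 of the called log2 ratios reversed. Of the 71 log2 ratios, called or not, 11 changed sign between control strains in the means as deposited (H2-Ea-ps, H2-Oa, H2-Ke6 and Klrg1 among them), as did 14 for DEHP in C57BL/6J and 3 for DEHP in FVB/N. With equal sums 4 changed sign between strains after DEHP and 3 for DEHP in FVB/N. The called strain differences after DEHP of H2-K2, H2-T3 and H2-D1 held in every fitted setting, whereas H2-Q5 and H2-T23 fell under the filter with a mean of at least 3.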
